A study of Mus musculus with 8 samples.

Results

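The comparison set mouse dorsal skin at 10 d after wax plucking, 1 array, against skin taken immediately after shaving, 1 array. These are 2 of the 8 one-colour microarrays of a study of hair regrowth after plucking, chosen by their titles. The other 6 arrays, taken 12 h to 50 d after plucking, are given beside them as levels. Both samples came from female C57 BL/6 mice. The labels give an age of 11 weeks at 10 d and 10 weeks for the shaved control, while the treatment protocol states a lower age for all mice, so by the labels the plucked mouse was older, and age and time after plucking cannot be told apart. Per the series' design text, waxing had first synchronised the follicles of the back, and a second waxing started the time course. The labels call the material adipose cells, whereas the design text speaks of adipose and dermal tissue around the follicles. Neither says how many mice gave each RNA or at what hour of the day a sample was taken.

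Hair follicles cycle between rest (telogen), growth (anagen) and regression (catagen), and plucking a resting club hair starts a new anagen. In anagen, matrix cells at the base of the follicle divide and differentiate into the inner root sheath, which moulds the hair, and into the shaft, whose keratin filaments are bound together by keratin-associated proteins. Follicle melanocytes pass pigment to the shaft during growth, and the fat layer of the skin changes in thickness with the cycle.

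Each gene was followed as its level, the log2 of the background-subtracted spot signal minus the 75th percentile of the same array, so that a level of 0 equals the signal below which 75% of the gene spots of that array lie. A gene counted as higher or lower when the 10 d level differed from the shaved level by at least 2-fold and the brighter array had its probe well above background. With 1 array on each side there is no replicate, so no difference below carries a test and each describes these 2 samples. The SD of the 10 d minus shaved difference between spots of a probe was 0.0579 (median over 374 probes), and that between probes of a gene was 0.161 (median over 8039 genes). Both describe the array and leave out differences between mice. Probes well above background made up 73.4% on the 10 d array and 74.6% on the shaved array, no spot was saturated, and the 10 spike-in RNAs differed by -0.04 to 0.39. The slope of the spike-in signal was 0.891 on the 10 d array, which the file header marks as out of range, and 0.915 on the shaved array. The net signal of the negative controls was marked as out of range on both arrays. All arrays lay on 1 slide with 1 scan time. Where the dimmer array did not have a gene well above background, the size is a bound, written "at least N-fold" and taken against the lowest signal measured above background on that array.

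The tissue label was set against cell type markers. Adipoq, which encodes adiponectin, had a level of 5.87 at 10 d and 6.64 in shaved skin, and Fabp4, a fatty acid carrier of adipocytes, one of 7.86 at 10 d and 8.26 in shaved skin. Acta1, the actin of skeletal muscle, stood at 8.49 at 10 d and 8.65 in shaved skin, and Tnni2, a fast muscle troponin, at 9.29 at 10 d and 9.19 in shaved skin. Krt5, the keratin of basal keratinocytes, stood at 2.93 at 10 d and 3.69 in shaved skin. Markers of fat, skeletal muscle and keratinocytes were thus all well above background on both arrays. In such bulk RNA fewer cells of a type cannot be told apart from less RNA per cell.

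Of 28491 genes measured, 1743 (6.12%) differed by at least 2-fold, 1140 (4.00%) as higher at 10 d and 603 (2.12%) as lower, and the median difference over all genes was -0.01. The shares of 4.00% and 2.12% are the background for all counts of higher and lower list members below. Over all 28491 genes, 17708 lay above their 6 d level at 10 d and 10783 below, with a median of 0.11. The 10 d level was the highest of the 8 arrays for 5535 genes and the lowest for 3829. Shaved skin was the highest for 3587 and the lowest for 2338. These are the background for list counts of those kinds. The higher side reached much further. It held 75 genes with a log2 difference of 5 or more, against 7 on the lower side, and 44 of the 75 were hair keratins, keratin-associated proteins or other genes of the hair lists. Of the 1140 higher genes, 746 had their highest level of all 8 arrays at 10 d and 417 had their lowest in shaved skin. Of the 603 lower genes, 261 were lowest at 10 d and 252 were highest in shaved skin. Only a bound was available for 334 of the higher and 245 of the lower genes. At that bound 139 of the 334 and 145 of the 245 stayed under 2-fold, so the counts include genes whose size is not known. With normexp background correction the counts were 566 higher and 214 lower.

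**Figure D1:**
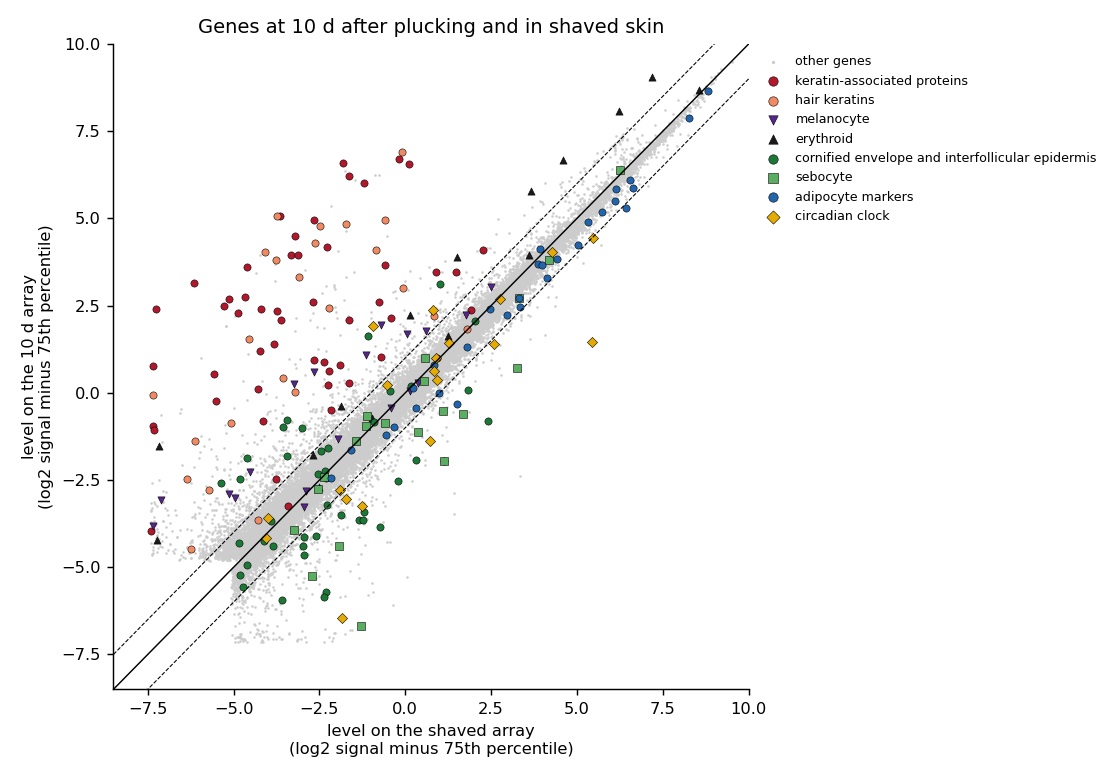
Level of each of 28491 genes at 10 d (vertical axis) against shaved skin (horizontal axis), both as log2 signal minus the array's 75th percentile. The solid line marks equal levels, the dashed lines a 2-fold difference, and coloured points mark members of 8 gene lists. Keratin-associated proteins and hair keratins lie far above the line, while adipocyte markers lie near it.

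After the keratin-associated proteins described below, hair keratins had the largest list median. They are the filament proteins of the shaft and of the sheath around it. Of 24 listed, all were measured, 22 were at least 2-fold higher at 10 d, against 4.00% of all genes, and none was lower, with a median difference of 4.84, or 4.79 with dim members at their bound. One of the 22, Krt39, had a bound under 2-fold. Among the 9 type I hair keratins, which pair with type II keratins in the cortex and cuticle, the median difference was 4.94 and all 9 were higher. Krt33a, of the cortex, had levels of -3.74 on the shaved array, 0.38, -2.83, 0.31, 1.65 and 5.51 at 12 h, 1 d, 2 d, 4 d and 6 d, 5.06 at 10 d and -0.76 at 50 d. It was high at 6 d and 10 d, far above the other 6 arrays, and the 10 d level lay 0.45 below that at 6 d. Krt34 had levels of -3.77 on the shaved array, -0.75, -3.13, -0.48, -0.63 and 3.55 at 12 h, 1 d, 2 d, 4 d and 6 d, 3.81 at 10 d and -2.39 at 50 d, a difference of 7.57 or 190.3-fold. Its highest level of the 8 arrays was at 10 d, close to that at 6 d. Krt31 differed by 4.94 and Krt36, the least of the 9, by 1.36.

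Type II hair keratins were higher in 5 of 6 cases, with a median of 4.42. Krt86 had levels of -0.61 on the shaved array, 0.75, -0.26, 1.09, 1.11 and 4.68 at 12 h, 1 d, 2 d, 4 d and 6 d, 4.94 at 10 d and 0.15 at 50 d, a 46.8-fold difference. Krt87, named Krt83 on the array, was 68.2-fold and Krt81 24.9-fold higher, and their probes share a run of 24 bases. Krt84, a keratin of tongue papillae and of the hair and nail, was at least 18.4-fold higher. It stood at -0.86 at 10 d, against -5.07 to -3.39 on the other 7 arrays, and so it was high at 10 d alone. Krt84 lay 3.32 above its 6 d level, unlike Krt82, which lay -1.79 from it.

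The sixth type II keratin, Krt85, gave a result that depends on the probe. Its brightest probe, which stood for the gene, had levels of 1.82 at 10 d and 1.79 in shaved skin and ran between 1.38 and 2.08 over the 8 arrays. A second Krt85 probe, at chr15:101261695-101261754 of mm9, was 7.09 higher at 10 d, with levels of 3.86 at 10 d and -3.24 in shaved skin. Its remaining probe differed by 0.97.

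Inner root sheath keratins were higher in 7 of 8 cases, with a median of 6.49, which is 5.72 when Krt26 is set to its bound. Krt71, a type II keratin of all layers of this sheath, had levels of -0.09 on the shaved array, 3.28, 0.49, 3.92, 8.04 and 7.82 at 12 h, 1 d, 2 d, 4 d and 6 d, 6.89 at 10 d and 2.52 at 50 d. Krt25, its type I partner, had levels of -2.47 on the shaved array, 1.11, -2.18, 1.5, 6.35 and 6.17 at 12 h, 1 d, 2 d, 4 d and 6 d, 4.79 at 10 d and 0.43 at 50 d, a 154-fold difference. For both, 4 d and 6 d lay above 10 d. Across the 8 sheath keratins the median 10 d minus 6 d difference was -1.37, and 1 of the 8 was above its 6 d level. For the type I hair keratins that median was -0.24. Krt26 was at least 32.7-fold higher, and Krt74 differed by 0.63. Krt75, the keratin of the companion layer between the sheaths, was at least 13.1-fold higher.

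**Figure D2:**
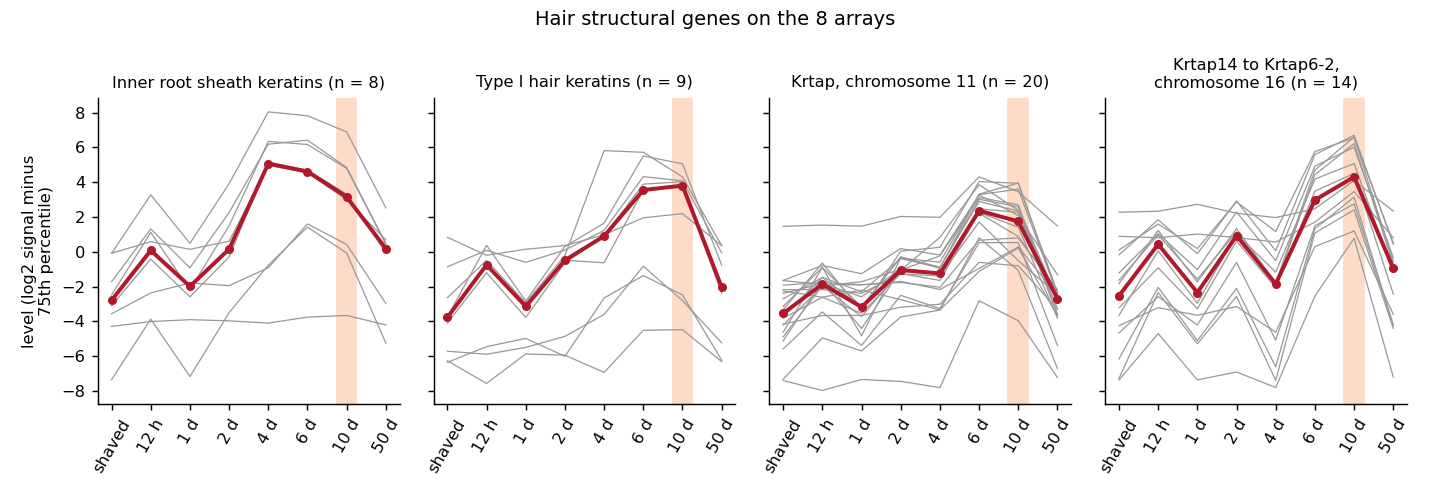
Levels of inner root sheath keratins (8), type I hair keratins (9), keratin-associated proteins on chromosome 11 (20) and those from Krtap14 to Krtap6-2 on chromosome 16 (14) on the 8 arrays, as log2 signal minus the array's 75th percentile. Grey lines are genes, the red line is their median and the shaded band marks 10 d. The median of the sheath keratins lies above its 10 d level at 4 d and 6 d, and the chromosome 16 genes have their highest level at 10 d.

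Keratin-associated proteins, the matrix that binds keratin filaments of the shaft, differed even more. Of 51 listed, all were measured, 48 were higher and none lower, with a median of 5.44, or 5.23 with the 10 dim members at their bound. Krtap22-2 had levels of -3.65 on the shaved array, 0.06, -2.95, 1.03, -1.17 and 4.18 at 12 h, 1 d, 2 d, 4 d and 6 d, 5.08 at 10 d and -1.18 at 50 d. Krtap19-2, named Krtap16-1 on the array, had levels of -1.83 on the shaved array, 1.23, -1.73, 1.33, -1.80 and 4.70 at 12 h, 1 d, 2 d, 4 d and 6 d, 6.60 at 10 d and -0.53 at 50 d, a 343-fold difference. Both were highest at 10 d and second at 6 d, with the 4 d level below those at 12 h and 2 d. Krtap16-3, Krtap21-1 and Krtap8-1 were 229-fold, 211-fold and 198-fold higher. Krtap19-3 was at least 303-fold, Krtap3-3 at least 223-fold and Krtap14 at least 182-fold higher. The members within 2-fold included Krtap13 at 0.17 and Krtap5-5 at 0.06. Probes of Krtap5-5 disagreed, from 0.06 to 5.80.

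The 2 large clusters of these genes differed in their relation to 6 d. On chromosome 16 (mm9 88611735 to 89570480), 20 of 21 members were higher at 10 d with a median of 6.87, and 16 of the 21 were above their 6 d level. On chromosome 11 (99411448 to 99854715), 20 of 20 members were higher with a median of 5.26, and 6 of the 20 were above their 6 d level. Within the chromosome 16 cluster, the 14 members from Krtap14 to Krtap6-2 (88825536 to 89419627) were all higher, all had their highest level of the 8 arrays at 10 d, and lay 0.80 to 3.32 above 6 d. Most of that stretch belongs to families known as high glycine-tyrosine proteins of the hair cortex. Krtap19-1 lay 3.32 above 6 d and was at least 58.9-fold above shaved skin. Krtap4-9, of the chromosome 11 cluster, lay -2.22 from its 6 d level. These differences between single arrays were not tested.

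Close relatives can share hybridisation, so 2 pairs of probes on chromosome 16 are shown. In the first pair, capitals mark the 25 bases that both probes hold, at chr16:88874321-88874380 and chr16:88962906-88962965 of mm9:
Krtap19-2 probe: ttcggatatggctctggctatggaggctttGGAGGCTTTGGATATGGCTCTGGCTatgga
Krtap16-3 probe: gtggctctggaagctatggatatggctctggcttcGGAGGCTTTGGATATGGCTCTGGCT
In the second pair, at chr16:89047852-89047911 and chr16:89032140-89032199, 57 of 60 letters are the same and capitals mark the 3 that differ:
Krtap6-5 probe: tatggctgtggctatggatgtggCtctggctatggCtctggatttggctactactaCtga
Krtap6-1 probe: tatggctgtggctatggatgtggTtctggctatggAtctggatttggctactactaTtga
Krtap6-5, named Krtap16-8 on the array, and Krtap6-1 were 117-fold and 150.1-fold higher. With near-identical probes, these 2 values cannot be taken as separate measurements. Over all 51 members, 4 brightest probes share an unbroken run of 20 or more bases with another member's and none an unbroken run of 30.

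Promoters of the hair genes are shown because their members moved together. RefSeq (GRCm38.p6) gave a promoter for 45 of the 51 keratin-associated genes and 17 of the 24 hair keratins. The motif TATAAA, read on the gene's strand from 250 bases before the start to 50 after it, was in 37 of the 45 (82.2%) and 11 of the 17 (64.7%), against 8.32% of all 32851 promoters. On either strand the shares were 82.2%, 76.5% and 13.6%. For the cornified envelope genes described below, the motif was in 13 of 39 promoters (33.3%) on the gene's strand. It lay between 40 and 20 bases before the start in 27 of the keratin-associated and 9 of the hair keratin promoters. A match is a description of the letters and no evidence of binding. Krtap13 and Krtap5-5, within 2-fold at 0.17 and 0.06, also held the motif on the gene's strand. Krt33a and Krtap19-2, at 8.79 and 8.42, were not among the genes with a match. The 3 genes shown were picked among those with a match. The 250 bases before their start follow, with TATAAA in capitals, at chr16:89010760-89011009, chr11:99598107-99598356 and chr11:100029869-100030118, all on the minus strand:
Krtap22-2 promoter: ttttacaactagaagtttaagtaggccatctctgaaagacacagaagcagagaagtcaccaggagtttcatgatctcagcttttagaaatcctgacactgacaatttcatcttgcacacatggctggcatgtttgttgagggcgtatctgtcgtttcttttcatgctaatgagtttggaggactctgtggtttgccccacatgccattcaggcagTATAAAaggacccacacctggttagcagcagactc
Krtap9-3 promoter: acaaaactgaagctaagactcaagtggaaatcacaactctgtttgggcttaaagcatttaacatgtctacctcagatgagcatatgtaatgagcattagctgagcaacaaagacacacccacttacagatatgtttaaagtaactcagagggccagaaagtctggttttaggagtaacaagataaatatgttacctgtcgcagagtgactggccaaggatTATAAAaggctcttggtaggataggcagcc
Krt33b promoter: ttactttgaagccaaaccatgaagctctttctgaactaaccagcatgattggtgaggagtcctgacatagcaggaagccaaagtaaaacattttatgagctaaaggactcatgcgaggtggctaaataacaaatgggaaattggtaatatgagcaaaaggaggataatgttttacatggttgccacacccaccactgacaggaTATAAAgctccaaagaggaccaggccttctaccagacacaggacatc
The motif starts 35, 30 and 47 bases before the start of these 3 genes in the order given.

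Other proteins of the sheath and shaft were higher in 7 of 14 cases (15 listed), with a median of 1.05. Tchh, which encodes trichohyalin of the inner root sheath and medulla, was 130.3-fold higher. Psors1c2 was 181-fold, and S100a3, a calcium-binding protein of the hair cuticle, 64.4-fold higher. Padi3, an enzyme that modifies trichohyalin, had levels of -2.56 on the shaved array, -1.36, -2.76, -0.97, 2.93 and 3.28 at 12 h, 1 d, 2 d, 4 d and 6 d, 1.88 at 10 d and -1.93 at 50 d. It was high at 4 d, 6 d and 10 d and below its shaved level at 1 d. Of the 14, 13 lay below their 6 d level.

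Transcription factors of the hair matrix were higher in 8 of 24 cases and lower in none, with a median of 0.21. All 8 were among the factors of the shaft lineage, and Dlx1, one of them, had a bound of only 1.39-fold. Hoxc13, which activates hair keratin genes, had levels of -3.75 on the shaved array, -3.01, -3.49, -2.22, 2.03 and 1.79 at 12 h, 1 d, 2 d, 4 d and 6 d, -0.13 at 10 d and -2.74 at 50 d, a 12.3-fold difference. Lef1, the nuclear partner of beta-catenin, had levels of -2.93 on the shaved array, 0.65, -2.44, -1.35, 2.66 and 2.08 at 12 h, 1 d, 2 d, 4 d and 6 d, 0.50 at 10 d and -1.82 at 50 d. Foxn1, mutated in the nude mouse, was at least 11.5-fold higher, and Dlx2 at least 5.68-fold. These 8 factors had their highest levels at 4 d or 6 d, and 22 of the 24 were lower at 10 d than at 6 d. Gata3, a factor of the inner root sheath, differed by -0.09.

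Signalling genes of the follicle were mostly within 2-fold. Of 34 WNT genes, 3 were higher and 1 lower (median 0.09), and of 21 BMP genes, 3 and 2 (0.09). Of 13 hedgehog genes, 1 and 0 were (0.27), and of 25 FGF, PDGF and EGF genes, 3 and 2 (0.23). Over all genes 4.00% were higher and 2.12% lower. In the FGF, PDGF and EGF list 1 of the 3 higher and 1 of the 2 lower genes had a bound under 2-fold. Wnt3 was at least 2.69-fold and Fgf5, a signal that ends anagen, at least 2.2-fold higher. Fgf5 had levels of -3.56, -2.27 and -3.96 at 4 d, 6 d and 10 d, and on the other 5 arrays it was not well above background. The BMP ligands Bmp7 and Bmp2 were 2.45-fold and 2.26-fold higher, and the BMP antagonist Grem1 was at least 3.47-fold lower. Areg, an EGF receptor ligand, had levels of -0.97 at 10 d and 1.18 in shaved skin. Shh, the hedgehog ligand of the matrix, was well above background at 4 d and 6 d but neither at 10 d nor in shaved skin.

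Stem cell, germ and outer sheath genes did not follow the shaft. Of 14 stem cell and germ genes, 1 was higher and 2 lower, and of 7 outer root sheath and basal keratins, 3 were lower and none higher, with a median of -0.75 that was 0.18 against the 50 d array. Krt15, a keratin of the bulge and basal layer, had levels of 2.79 on the shaved array, 2.84, 4.15, 3.83, 4.40 and 3.42 at 12 h, 1 d, 2 d, 4 d and 6 d, 0.52 at 10 d and 2.46 at 50 d. It was lowest at 10 d and counts among the lower genes of both lists. Krt14, of the basal layer, had levels of 0.04 at 10 d and 1.25 in shaved skin. Lgr5, a receptor of follicle stem cells, was 2.43-fold lower by its brightest probe, while its second probe gave 0.26. Of 19 dermal papilla genes, Wif1 was 2.66-fold higher and Crabp1 2.43-fold lower.

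Melanocyte genes were higher in 11 of 19 cases, against 4.00% of all genes, and lower in none. Their median was 1.63, which became 1.28 when bounds replaced dim values and 0.86 under normexp background correction. Dct, an enzyme of melanin synthesis, had levels of -0.71 on the shaved array, -1.01, -0.61, 1.06, 4.77 and 4.08 at 12 h, 1 d, 2 d, 4 d and 6 d, 1.95 at 10 d and 0.42 at 50 d. Pmel, the fibril protein of melanosomes, had levels of -2.67 on the shaved array, -2.84, -2.55, -0.96, 3.00 and 2.41 at 12 h, 1 d, 2 d, 4 d and 6 d, 0.59 at 10 d and -1.38 at 50 d, a 9.61-fold difference. Both were highest at 4 d, with 6 d next and then 10 d. Mc1r, the receptor that sets the kind of pigment, was at least 4.1-fold higher. The lineage factors Kit, Sox10 and Mitf differed by -0.08, -0.10 and 0.54. Trpm1 was 3.1-fold higher by its brightest probe, and its 4 probes ran from 0.68 to 5.32.

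Genes of the G2 and M phases were lower in 10 of 22 cases, against 2.12% of all genes, and higher in none, with a median of -0.85. All 22 lay below shaved skin and below 6 d. Kif2c, a microtubule-depolymerising kinesin, was one of the 10, at a bound of at least 1.88-fold. Cdk1, the kinase of mitotic entry, had levels of -1.91 on the shaved array, -3.33, -3.29, -3.11, 0.48 and -0.32 at 12 h, 1 d, 2 d, 4 d and 6 d, -2.97 at 10 d and -3.06 at 50 d. It was high at 4 d and 6 d and low at 10 d, 50 d, 12 h, 1 d and 2 d, with shaved skin between. The 10 d minus shaved differences of its 3 probes ran from -1.06, by the brightest, to 0.25. Mki67, a marker of cycling cells, differed by -0.33. Of 22 DNA replication genes, none reached 2-fold (median -0.12). Against the 50 d array the G2 and M median turned to 0.13, so its sign changed with the control.

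Genes of the cornified envelope and upper epidermis split. Of 43 measured, 9 were higher and 17 lower, against 4.00% and 2.12% of all genes, with a median of -0.34. That median was -0.0076 with normexp background correction and -0.0542 over members above background on both arrays. At 10 d 20 of the 43 had their lowest level of the 8 arrays, against 3829 of all 28491 genes. Lor, which encodes loricrin, the main envelope protein, had levels of 2.42 on the shaved array, 4.78, 6.79, 4.95, 4.22 and 3.24 at 12 h, 1 d, 2 d, 4 d and 6 d, -0.81 at 10 d and 2.46 at 50 d. The 10 d level lay below all others, and the 1 d level above all others. Krt10, the keratin of suprabasal cells, had levels of 1.81 on the shaved array, 3.94, 5.17, 3.96, 3.23 and 2.16 at 12 h, 1 d, 2 d, 4 d and 6 d, 0.09 at 10 d and 1.90 at 50 d. Lce1c, a late envelope protein, was 8.56-fold lower by its brightest probe, and Lce1f at least 5.42-fold. Krt1 was 4.88-fold and Flg, which encodes filaggrin, 2.67-fold lower. All 4 of the lower epidermal keratins, Krt1, Krt10, Krt77 and Krt78, were lowest at 10 d.

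The 9 higher members included junction genes, envelope genes and Cers3, a barrier lipid gene whose probes ran from -1.24 to 2.64. Among the envelope genes were Sprr1b at 2.57, Sprr2h at 2.36 and Lce3c at 1.66. The junction gene Cdsn differed by 0.03. Dsg1a, a desmosomal cadherin, was 3.99-fold higher and Dsc1 at least 5.71-fold. Ivl, which encodes involucrin, was 6.68-fold, Cnfn 6.63-fold and Sprr1a 4.35-fold higher. Sprr1a had levels of 1.01 on the shaved array, 3.01, 2.52, 2.77, 5.03 and 4.69 at 12 h, 1 d, 2 d, 4 d and 6 d, 3.13 at 10 d and 0.11 at 50 d, so that 4 d and 6 d were higher still. In the epidermal differentiation complex on chromosome 3 (mm9 91884206 to 93202723), 25 members had a median of -0.93, with 5 higher and 12 lower. How much epidermis each sample held was not measured, and its part in these differences was not tested.

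**Figure D3:**
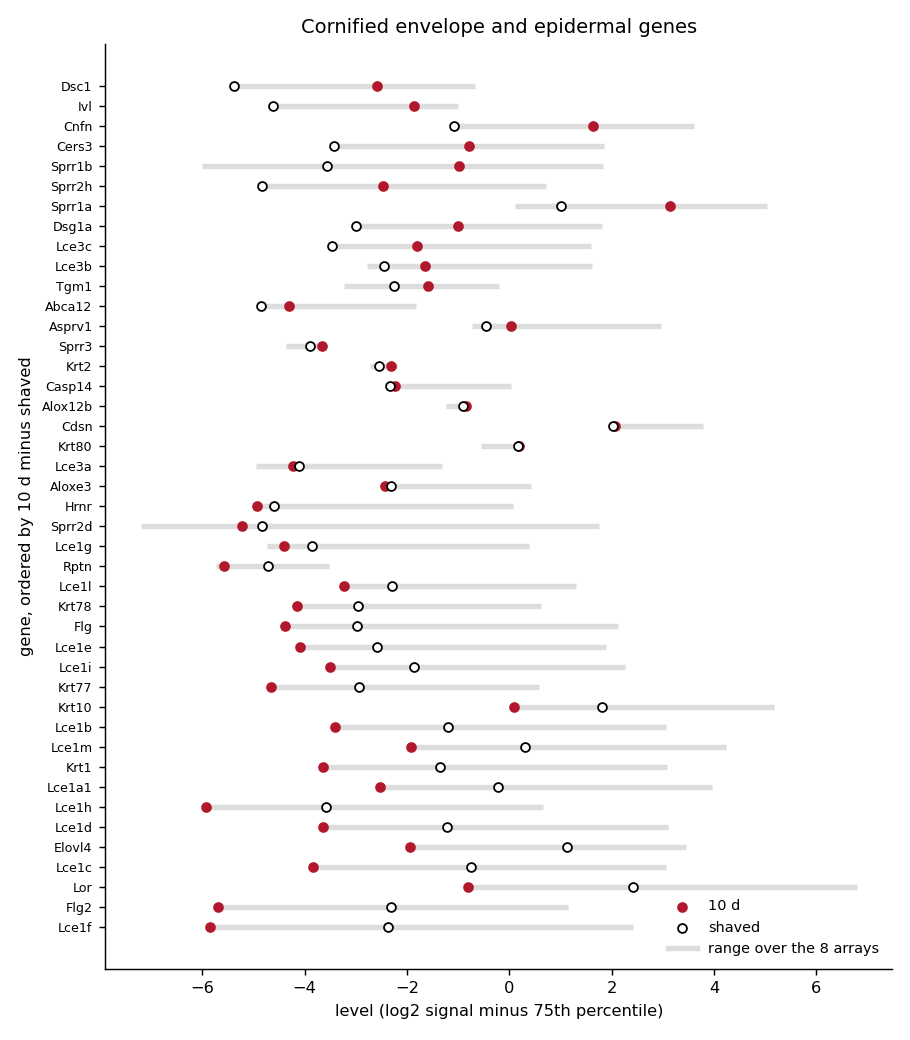
Levels of 43 cornified envelope and epidermal genes at 10 d (filled) and in shaved skin (open), as log2 signal minus the array's 75th percentile, ordered by the difference. Grey bars span the lowest to the highest of the 8 arrays. Loricrin, filaggrin and Lce1c sit at the low end of their bar at 10 d.

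Sebaceous gland genes make the wax and sterol lipids of sebum. They were lower in 8 of 20 cases, against 2.12% of all genes, and higher in none, with a median of -0.48. Far2, a fatty alcohol enzyme, was at least 11.4-fold lower, but its probes ran from -5.38 to -0.48. Awat1, a wax synthase, had levels of -1.93 on the shaved array, -0.81, -1.21, -0.98, -0.46 and -3.81 at 12 h, 1 d, 2 d, 4 d and 6 d, -4.38 at 10 d and -2.06 at 50 d. Krt79, a keratin of the gland's duct, had levels of 3.25 on the shaved array, 3.97, 4.71, 4.78, 6.28 and 3.20 at 12 h, 1 d, 2 d, 4 d and 6 d, 0.71 at 10 d and 2.69 at 50 d. For both, 10 d was the lowest array and 4 d the highest. Fa2h was 3.06-fold and Dgat2l6 at least 4.31-fold lower. Scd1, also made by adipocytes, differed by 0.11 and Mc5r, a receptor of the gland, by 0.46.

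Of 8 kallikreins and inhibitors of shedding, which control how corneocytes detach, 2 were lower and none higher, with a median of -0.60. The protease gene Klk6 was at least 29.1-fold and the protease inhibitor gene Spink5 6.55-fold lower. The other 6 were within 2-fold, among them Klk13 at 0.59 and Klk11 at 0.38.

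Adipocyte markers lay lower as a group but rarely by 2-fold. Of 29, 28 were below shaved skin and 2 were at least 2-fold lower, with a median of -0.55. Nrg4, a secreted factor of fat, had levels of -0.33 at 10 d and 1.5 in shaved skin, and Cidec, a lipid droplet protein, 5.31 at 10 d and 6.43 in shaved skin. Lipe, the hormone-sensitive lipase, differed by -0.98 and Pparg, the master factor of fat cells, by -0.60. Against 6 d the median was 0.05, with 18 members above and 11 below their 6 d level. Over all 28491 genes that median was 0.11, with 17708 above and 10783 below, so the list lay close to all genes. Of 20 fatty acid and triglyceride synthesis genes, 4 were lower and none higher (median -0.36). Dgat2, the last enzyme of triglyceride synthesis, had levels of 5.69 on the shaved array, 5.66, 5.75, 5.76, 5.34 and 5.35 at 12 h, 1 d, 2 d, 4 d and 6 d, 4.25 at 10 d and 6.67 at 50 d, lowest at 10 d. Of 26 respiratory chain genes none reached 2-fold, but 24 had their lowest level at 10 d (median -0.21), against 3829 of all 28491 genes. These are bright genes, with a median level of 5.28 at 10 d and 5.44 in shaved skin. The 10 d array also had the lowest spike-in slope of the 8, 0.891, whose part in these low levels was not tested.

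Preadipocyte and progenitor genes lay slightly the other way, with a median of 0.35 and 1 of 13 at least 2-fold higher. Pi16, a marker of progenitors in fat and fascia, had levels of 6.45 on the shaved array, 6.10, 6.53, 6.65, 6.08 and 6.91 at 12 h, 1 d, 2 d, 4 d and 6 d, 7.59 at 10 d and 6.31 at 50 d, highest at 10 d. Dpp4, of the same cells, differed by 0.71. Of the 13, 12 were above their 6 d level and 6 were highest of the 8 arrays at 10 d. Over all 28491 genes 17708 were above 6 d and 5535 were highest at 10 d. Outside this list, Pdk4, a gene of the lipolysis and fatty acid oxidation list that limits the use of glucose, was 3.84-fold higher. Its level of 4.06 in shaved skin lay below all 7 plucked arrays.

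Erythroid genes were higher in 9 of 15 cases and lower in none, with a median of 1.84, or 1.49 with dim members at their bound. Hba-a1, an alpha globin, had levels of 7.20 on the shaved array, 7.70, 7.86, 7.99, 7.73 and 7.59 at 12 h, 1 d, 2 d, 4 d and 6 d, 9.06 at 10 d and 8.42 at 50 d. Alas2, the first enzyme of haem synthesis in red cells, had levels of 1.5 on the shaved array, 2.17, 2.50, 2.65, 2.44 and 2.06 at 12 h, 1 d, 2 d, 4 d and 6 d, 3.89 at 10 d and 2.58 at 50 d. Both were highest at 10 d, as were 12 of the 15 members, against 5535 of all 28491 genes. Slc4a1, the anion exchanger of the red cell membrane, was 2.8-fold higher, and Epb42 at least 12-fold by one probe, while its other probe gave 0.23. Rhd was at least 1.83-fold higher, a bound under 2-fold, and Hba-a2 differed by 0.13. The part of blood in the RNA was not tested.

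Clock genes included 2 higher and 7 lower of 19 at 10 d, against 4.00% and 2.12% of all genes, with a median of -0.22. On the shaved array 7 of the 19 had their highest level of the 8 arrays and 3 their lowest. Over all 28491 genes these counts were 3587 and 2338. Arntl, an activator of the clock, was 7.32-fold higher and Dbp, an output factor, 15.8-fold lower. Ciart, a repressor, was at least 7.83-fold lower. Hlf, a relative of Dbp, had levels of 0.71 on the shaved array, -1.26, -0.17, -0.40, -1.30 and -1.17 at 12 h, 1 d, 2 d, 4 d and 6 d, -1.39 at 10 d and -0.47 at 50 d, with shaved skin the highest. Per3, a repressor, had levels of -1.72 on the shaved array, -3.68, -2.59, -2.45, -3.48 and -3.08 at 12 h, 1 d, 2 d, 4 d and 6 d, -3.05 at 10 d and -2.87 at 50 d, again with shaved skin the highest. The labels give no hour of sampling, so plucking and time of day cannot be told apart for these genes. The E-box CACGTG was in 6 of the 21 promoters that RefSeq gives for 16 of the clock genes (28.6%), against 7.15% of all promoters. These were promoters of Per1, Cry1, Bhlhe41, Ciart and Tef, with more than 1 for Tef. Per1, Cry1 and Bhlhe41 were within 2-fold, at -0.22, -0.13 and -0.86. Any relation between the differences and this motif was not tested. The Ciart promoter, at chr3:95882229-95882478 of GRCm38.p6 on the minus strand, holds it 116, 58 and 44 bases before the start, in capitals:
Ciart promoter: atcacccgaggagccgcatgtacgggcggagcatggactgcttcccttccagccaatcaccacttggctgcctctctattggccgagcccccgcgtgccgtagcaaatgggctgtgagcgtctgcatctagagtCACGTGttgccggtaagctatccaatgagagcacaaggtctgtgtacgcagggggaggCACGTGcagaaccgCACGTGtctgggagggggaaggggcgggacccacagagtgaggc

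**Figure D4:**
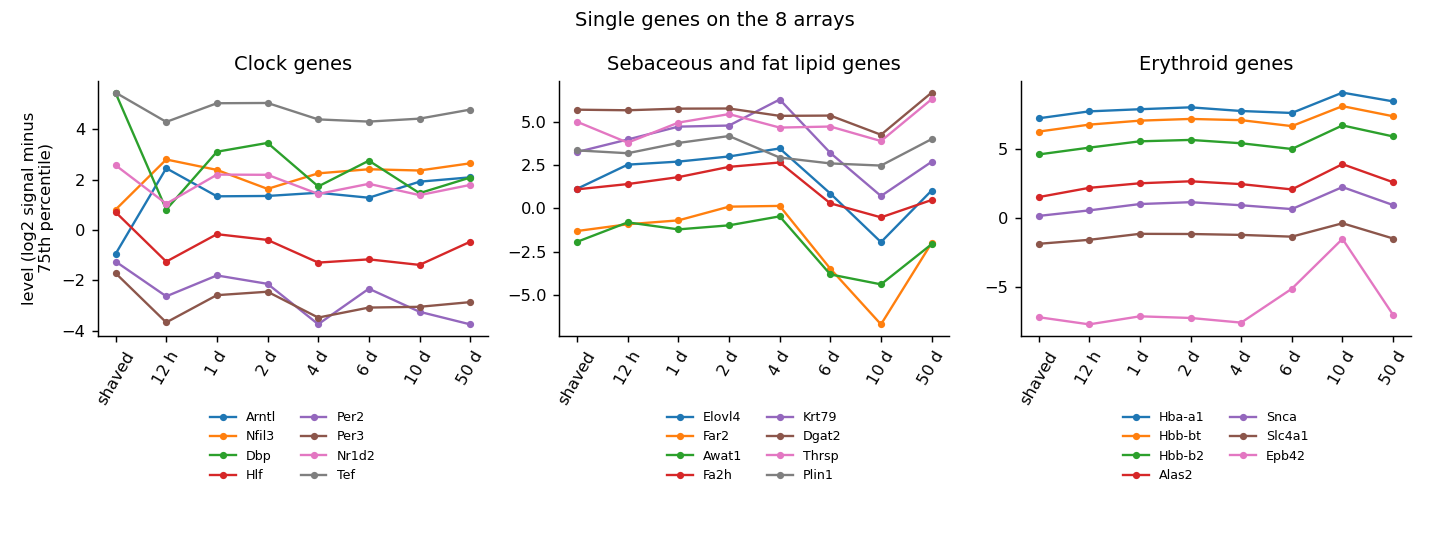
Levels of clock genes, sebaceous and fat lipid genes and erythroid genes on the 8 arrays, as log2 signal minus the array's 75th percentile. Each line is a gene. Dbp and Hlf are highest and Arntl is lowest in shaved skin, Far2 and Elovl4 are lowest at 10 d, and the erythroid genes are highest at 10 d.

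Immune genes were mostly within 2-fold, as were all genes, of which 4.00% were higher and 2.12% lower. Of 19 macrophage genes 2 were lower (median -0.34, with 11 of the 19 highest in shaved skin), Aif1 at -1.62 and Siglec1 at -1.38, while Csf1r, the receptor that marks macrophages, differed by 0.12. Of 20 interferon-stimulated genes 4 were lower (median -0.50). Against the 50 d array the macrophage median was 0.81 and the interferon-stimulated median 0.44, so both changed sign with the control. The T and NK cell, MHC class II and chemokine medians also changed sign, to 0.32, 0.46 and 0.10. Against 6 d all 20 interferon-stimulated genes lay lower at 10 d, with a median of -0.41. Of the macrophage genes 15 lay above 6 d and 4 below (median 0.30). In the interferon list the antiviral gene Bst2 had levels of 5.16 on the shaved array, 3.86, 3.61, 2.71, 2.59 and 4.22 at 12 h, 1 d, 2 d, 4 d and 6 d, 3.71 at 10 d and 3.73 at 50 d. Shaved skin was the highest of the 8 arrays for 10 of the 20, Bst2 among them, against 3587 of all 28491 genes. None of 15 T and NK cell genes and none of 8 MHC class II genes reached 2-fold. Of 31 chemokine genes 1 was higher and 3 lower, with Cxcl13, an attractant of B cells, at 1.06 and Cxcl10 at -1.87. Of the 3 lower chemokine genes 1 had a bound under 2-fold. Of 12 skin defensins and antimicrobial proteins 1 was higher and 2 lower (median -0.23). S100a7a, a psoriasin, was at least 2.7-fold higher, while Defb6, a defensin, was 19.9-fold and S100a9 2.09-fold lower. The neutrophil granule gene Ltf was 6.03-fold lower.

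Stroma, vessel and muscle genes were mostly within 2-fold, with list medians of -0.22 for collagens, 0.16 for fibroblast and matrix, -0.24 for blood vessel, -0.44 for lymphatic vessel and -0.42 for smooth muscle genes. The collagen and lymphatic medians were 0.21 and 0.31 against the 50 d array. Of 24 collagens 1 was lower, Col17a1, which anchors basal keratinocytes, at -2.21, and of 24 fibroblast and matrix genes 1, Postn, at -1.88. None of 24 blood vessel genes reached 2-fold. None of 26 skeletal muscle genes did so either, with a median of -0.13 that turned to 0.07 when levels were divided by the spike-in slope. All 9 smooth muscle genes lay below shaved skin and 1 of them, Lmod1, was at least 2-fold lower, with levels of -3.22 at 10 d and -0.96 in shaved skin. Of 17 glucocorticoid-induced and metallothionein genes 7 were higher, led by Mt4, a metallothionein of stratified epithelium, with levels of -2.36 on the shaved array, -1.36, -0.38, -0.85, 2.14 and 3.06 at 12 h, 1 d, 2 d, 4 d and 6 d, 1.86 at 10 d and -1.16 at 50 d. Mt4 was high at 4 d, 6 d and 10 d and low on the other 5 arrays. The other 10 genes of the list were within 2-fold, among them Sgk1 at -0.71, Tsc22d3 at -0.27 and Klf9 at 0.30. Of the 17, 11 lay above shaved skin and 6 below, with a median of 0.24. Shaved skin was the lowest of the 8 arrays for 6 of the 17 genes, against 2338 of all 28491 genes. Against the 50 d array 2 of the 17, Mt4 and Errfi1, were at least 2-fold higher.

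**Figure D5:**
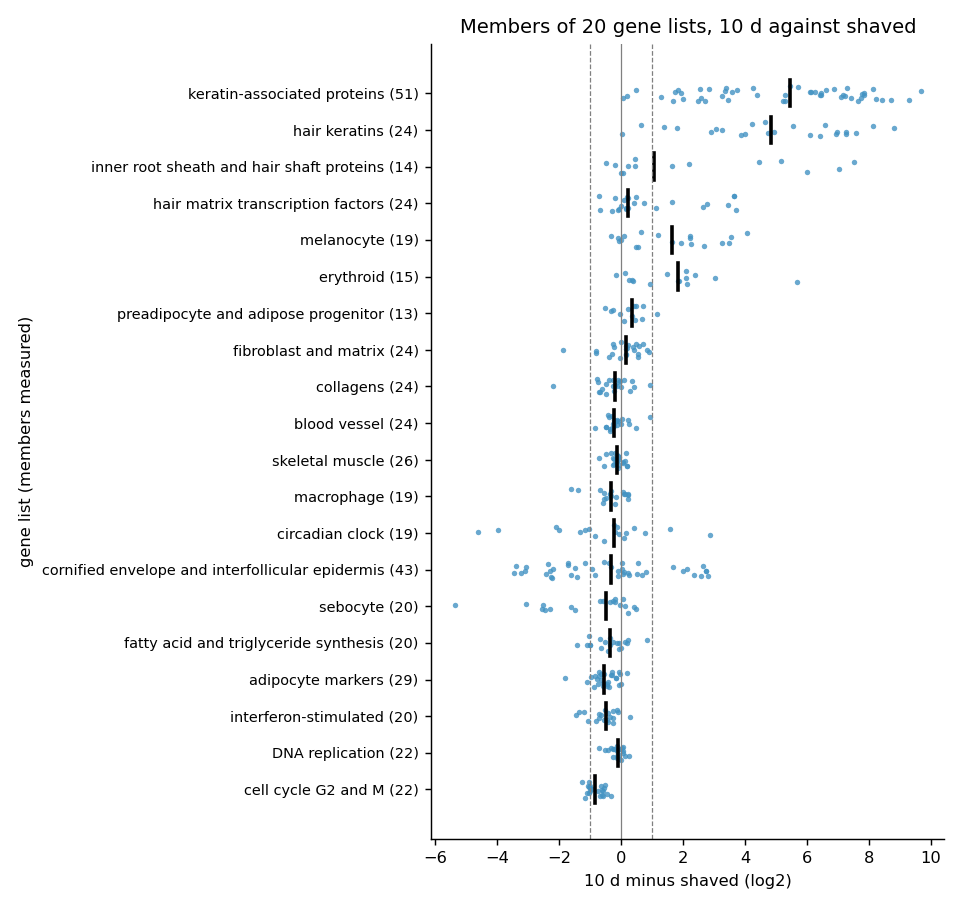
Difference between 10 d and shaved skin (log2) for the measured members of 20 gene lists. Points are genes, bars are medians, and dashed lines mark 2-fold. Keratin-associated proteins and hair keratins lie to the right, and G2 and M genes lie left of 0.

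Among single genes, Nmrk2, an enzyme of NAD synthesis in muscle, had levels of 3.33 on the shaved array, 1.33, 1.57, 0.13, -2.32 and 2.66 at 12 h, 1 d, 2 d, 4 d and 6 d, -2.38 at 10 d and 3.74 at 50 d. It was low at 4 d and 10 d and high at 50 d, in shaved skin and at 6 d. Cyp2g1 was 29.4-fold, Sdr16c6 13.4-fold and Rarres1 8.33-fold lower, and all 3 were lowest at 10 d. Peli3 and Mlc1 differed by -2.62 and -2.65, but shaved skin alone was high for them. Vmn1r104, Gpc2 and Prok1 were at least 22-fold, 14.6-fold and 13.2-fold lower, and were well above background in shaved skin only, though a second Prok1 probe gave 0.30. Defa21, an alpha defensin, was the reverse, well above background at 10 d only and at least 12.8-fold higher. Its probe, at chr8:22166019-22166078 of mm9, is shown because a signal on 1 array rests on it alone:
Defa21 probe: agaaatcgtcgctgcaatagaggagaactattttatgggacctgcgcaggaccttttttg
Of 489 olfactory receptor genes measured, 30 (6.13%) were higher and 9 (1.84%) lower, against 4.00% and 2.12% of all genes, and 7 were well above background at 10 d only, against 33 at 6 d only and 24 at 12 h only.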

How the data were processed

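The deposited scanner files give spot intensity, background-subtracted by Agilent Feature Extraction 10.5.1.1 per the file headers, with probe positions on mm9; no normalization between arrays is recorded. Control spots were left out. The log2 processed signal minus each array's 75th percentile was averaged over the spots of a probe (55668 probes, 13 dropped because every spot was an outlier on an array), and each of 34790 gene names took its brightest probe. Accessions gave 20726 names a current symbol and renamed 2199. Genes well above background on the brighter array were measured. With 1 array a side no test was run, and the number of arrays limits the precision. Of the genes listed, 6 had no match on the array. Lists can share genes, so their counts are not independent. Krt15, Elovl4, Cidea and Pdk4, among others, each count in more than 1 list. The 47 lists and the members were chosen with earlier results of these data known. The rule for names took 15 differences at either end among genes above background on both arrays, 5 bounds each way, the 6 genes farthest above and below the other 7 arrays, and per list the 5 largest differences and defining markers. Other members named beside these, among them Krt31, Krt36, Krt74, Krt84, Krt85, Dsg1a, Sprr1a, Hlf, Per3 and Slc4a1, were chosen after their values were seen. Counting was checked on simulated data. Python 3.11.15, numpy 2.4.6, pandas 2.3.3 and matplotlib 3.10.9 were used, and limma 3.58.1 in R 4.3.3 for normexp (offset 50).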

Additional observations from a re-analysis of the deposited data

Results flagged for a closer look

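Outer root sheath and basal keratins had a median difference from shaved skin of -0.75 at 10 d, against 0.63 at 6 d. G2 and M phase genes had a median of -0.85 at 10 d, against 1.05 at 6 d. Both lists are given here because they lay on opposite sides of the shaved array at these times. The difference between the times was not tested, and both medians share the shaved array.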

How the results depend on the processing

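No paired analysis was possible because each group has 1 array. The alternatives were normexp background correction, quantile normalization, centring on probes above background on all arrays, the mean over probes, keeping outlier spots, other filters and thresholds, the mean of list members, the 50 d array as the control and, chosen after seeing the data, division by the spike-in slope. With these apart from the 50 d control, 13 of 376 values of the 47 list medians changed sign, all in 5 lists whose reported median was 0.13 or less in size (stem cell and germ, dermal papilla, skeletal muscle, mast cell, inflammatory mediators). Of 1482 values of 247 named genes 1 changed sign, in a gene that differed by 0.16 or less. The median of all genes stayed between -0.06 and 0.02.

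The 1140 higher genes became 566 with normexp, 2571 at 1.5-fold, 540 at 3-fold and 1975 against 50 d. The 603 lower genes became 214, 1740, 246 and 1583, and 356 when both arrays had to be above background. With normexp the medians were 3.76 for hair keratins, 3.97 for keratin-associated proteins, 0.86 for melanocyte, -0.58 for G2 and M, -0.0076 for cornified, -0.32 for sebocyte and 1.23 for erythroid genes. With members above background on both arrays they were 5.82 for hair keratins, 4.40 for keratin-associated proteins, 0.90 for melanocyte, -0.0542 for cornified and 1.49 for erythroid genes. With the mean over probes melanocyte genes were at 1.93 and sebocyte genes at -0.65. The mean of the members was 5.08 for keratin-associated proteins, -1.13 for sebocyte, 1.63 for erythroid and -0.65 for clock genes. With the spike-in slope skeletal muscle was at 0.0728 and erythroid genes at 2.06. The cause of these shifts was not tested.

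Against 50 d the medians were 3.88 for hair keratins, 5.10 for keratin-associated proteins, -0.15 for cornified, -0.97 for both sebocyte and adipocyte genes, -0.99 for skeletal muscle, 0.87 for erythroid and 0.44 for interferon-stimulated genes. Of the 47 list medians 14 changed sign against 50 d, 3 of them 0.5 or more in size against shaved skin, which were outer root sheath and basal keratins at 0.18, G2 and M at 0.13 and Merkel and sweat gland genes at 0.0483. Of 247 named genes 44 changed sign, and the 15 with at least a 2-fold difference from shaved skin were Mlc1 at 0.16, Peli3 at 0.0772, Vmn1r104 at 1.00, Gpc2 at 1.13, Krt6a at 0.18, Kif2c at 0.20, Ccnb2 at 0.18, Bub1 at 0.0624, Cdk1 at 0.0917, Pdk4 at -0.0231, Siglec1 at 0.73, Irf7 at 0.60, Ciart at 0.46, Arntl at -0.17 and Per2 at 0.50. Genes near the background are limited by their signal, and 1 array a side leaves the spread between mice unknown.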

Other observations

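Several gene groups outside the hair follicle are given as values only. Of 17 inflammatory mediators and 8 heat shock genes none reached 2-fold, with medians of 0.03 and -0.18. Of 22 AP-1 and immediate early genes 2 were lower, the transcription factor Fos at -1.43 and Zfp36, which destabilises cytokine messages, at -1.01. No gene of cholesterol synthesis, of 20, reached 2-fold (median -0.08). Of 18 genes of lipolysis and fatty acid oxidation 1, Pdk4, was higher, and 15 of the 18 lay below shaved skin. Thermogenic fat genes were lower in 2 of 11 cases, Cidea at -2.29 and Ucp1, the uncoupling protein, at least 2.77-fold.

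Neutrophil genes split, with 3 of 15 higher and 3 lower, the higher ones being the stefins Stfa1, Stfa2 and Stfa3 at 1.01, 1.45 and 1.36. Of the 3 lower neutrophil genes 1 had a bound under 2-fold. B cell genes included 1 higher of 10, Pax5 at 1.11, and mast cell genes 1 of 10, Tpsab1, at a bound of at least 1.53-fold. Over all genes 4.00% were higher and 2.12% lower. Of 10 Schwann cell and nerve genes none reached 2-fold, with 8 above shaved skin. Of 7 Merkel cell and sweat gland genes 2 simple-epithelium keratins were lower, Krt8 at -1.44 and Krt19 at -1.03. Of 4 lymphatic vessel genes Mmrn1 was lower at -1.35.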
